A study of Bos taurus with 48 samples.

Results

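This report follows the transcripts of 5 genes through the bovine cumulus-oocyte complex (COC), the unit of an oocyte and the somatic cumulus cells around it. They are 4 ligands of the TGF-beta superfamily, GDF9 (ENSBTAG00000009478), BMP15 (ENSBTAG00000045782), BMP4 (ENSBTAG00000003835) and BMP6 (ENSBTAG00000019234), and the receptor BMPR2 (ENSBTAG00000006420). The genes were chosen by identifier out of 24616 listed genes, and all 5 were among the 12428 genes tested, those with an FPKM over 0.5 in 8 or more samples of at least 1 sample type. BMP4, BMP6, BMP15 and GDF9 passed this filter only through the oocytes, and BMPR2 passed it in every sample type.

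The samples came from 16 untreated COCs of Bos taurus, taken from antral follicles of slaughterhouse ovaries and picked for a homogeneous cytoplasm and a thick cumulus. Trypsin and pipetting separated each COC into its outer cumulus cells (outerCCs), the cumulus cells nearest the zona pellucida (innerCCs) and the denuded oocyte, with 1 library of each and 48 libraries in all. Each oocyte library is a single cell, whereas a cumulus library pools an unstated number of cells, and neither the donor cow nor her age or breed is given for a COC. Several COCs may therefore share a cow, and the p-values then measure the spread between COCs only. Cumulus RNA was purified before amplification and oocytes were lysed in the reaction tube, so that this handling and the sample type cannot be told apart.

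GDF9 and BMP15 are secreted almost exclusively by the oocyte, and they control the growth, metabolism and expansion of the cumulus cells. Ligands of this family assemble type II with type I serine/threonine kinase receptors, which phosphorylate SMAD transcription factors in the receiving cell. BMPR2 is the type II receptor for both GDF9 and BMP15, and BMP4 and BMP6 can use it as well. GDF9 signals through the type I receptor TGFBR1 to SMAD2 and SMAD3, while BMP15, BMP4 and BMP6 signal through BMPR1A, BMPR1B or ACVR1 to SMAD1, SMAD5 and SMAD9.

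Some libraries stood apart from their sample type. The number of genes over 0.5 FPKM ranged from 8525 to 11340 in oocytes and from 9054 to 11851 in outerCCs. In innerCCs it ranged from 648 to 2639 in the 8 libraries of COCs 176 to 184 and from 5876 to 10295 in the 8 libraries of COCs 185 to 192, and values within the latter set are given where they differ. Sequencing depth, estimated from the spacing of the low FPKM values, ranged from 0.227 to 7.65 times the median library. Of 20 oocyte markers 13 could be matched, all of them from lists of genes detected in oocytes alone in these samples. Their summed FPKM was 662 to 2946 in oocytes, with a median of 1.78 in outerCCs and 3.43 in innerCCs. It reached 380 in the outerCC of COC 191 and 98.6 in that of COC 190, and 321 and 29.9 in the innerCCs of COCs 190 and 189. Of 18 cumulus markers 6 were matched, and their summed FPKM was 191 to 4129 in outerCCs, 0 to 1368 in innerCCs and 9.19 to 140 in oocytes. HAS2 and CD44, both on that list, had higher medians in oocytes than in either cumulus layer.

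GDF9 had the highest median FPKM of the 5 transcripts in oocytes. Its level ranged from 347 FPKM in COC 190 to 1013 FPKM in COC 177, with a median of 579 and a mean of 606 ± 188 (SD, n = 16), which ranked it 149th of the 10327 genes detected in oocytes. In outerCCs the GDF9 level had a median of 0.373 FPKM and ranged from 0 in 4 libraries to 186 in COC 191, and the next highest library, COC 190, held 5.02. In innerCCs the median was 0.285 FPKM and the range was 0 to 12.5, with COCs 190 and 189 (10.1) highest. Every oocyte was above every cumulus library, which was true of 13.6% of all genes tested against outerCCs and of 20.1% against innerCCs.

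BMP15, the closest relative of GDF9, followed the same pattern with a wider spread. Oocytes held from 93.4 FPKM in COC 180 to 999 FPKM in COC 179, with a median of 460 and a mean of 491 ± 249 (SD, n = 16). In outerCCs it was listed at 0 in 9 of 16 libraries, and it was above 1 FPKM in COC 191 (105) and COC 190 (30.2) alone. In innerCCs 8 of 16 libraries were at 0, and COC 190 (30.2) and COC 189 (6.44) were highest. The oocytes did not overlap the innerCCs, and the outerCC of COC 191 stood above the lowest oocyte, COC 180.

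BMP4, known in several species as a product of the theca cells of the follicle wall, was measured at a far lower level. Its oocyte level ranged from 0.797 FPKM in COC 180 to 12.8 in COC 181, with a median of 5.82 and a mean of 6.03 ± 3.18 (SD, n = 16). OuterCCs ranged from 0 to 1.31 FPKM (median 0.243) and innerCCs from 0 to 1.94 (median 0). Of the 16 oocytes, 15 were above every cumulus library in each layer, and the oocyte of COC 180 was the exception.

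BMP6, known as a further BMP of oocyte origin, was the lowest of the 5 in oocytes by median. It ranged from 0.253 FPKM in COC 176 to 5.21 in COC 186, with a median of 1.75 and a mean of 1.95 ± 1.46 (SD, n = 16). It was listed at 0 in all 16 innerCC libraries and in 14 of 16 outerCC libraries, with 0.341 FPKM in COC 191 and 0.130 in COC 192. The oocytes did not overlap the innerCCs, while 14 of 16 oocytes were above the highest outerCC library.

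BMPR2 was present on both sides of the COC. Oocytes ranged from 0.301 FPKM in COC 180 to 9.14 in COC 181, with a median of 3.01 and a mean of 3.31 ± 2.13 (SD, n = 16). OuterCCs ranged from 0.371 FPKM in COC 186 to 3.17 in COC 192, with a median of 1.51 and a mean of 1.59 ± 0.813 (SD, n = 16). InnerCCs had a median of 0.404 FPKM and ranged from 0 in 6 libraries to 5.31 in COC 187. In the innerCCs of COCs 185 to 192 the median was 0.819 FPKM, and in those of COCs 176 to 184 it was 0. All 3 sample types overlapped.

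**Figure D1:**
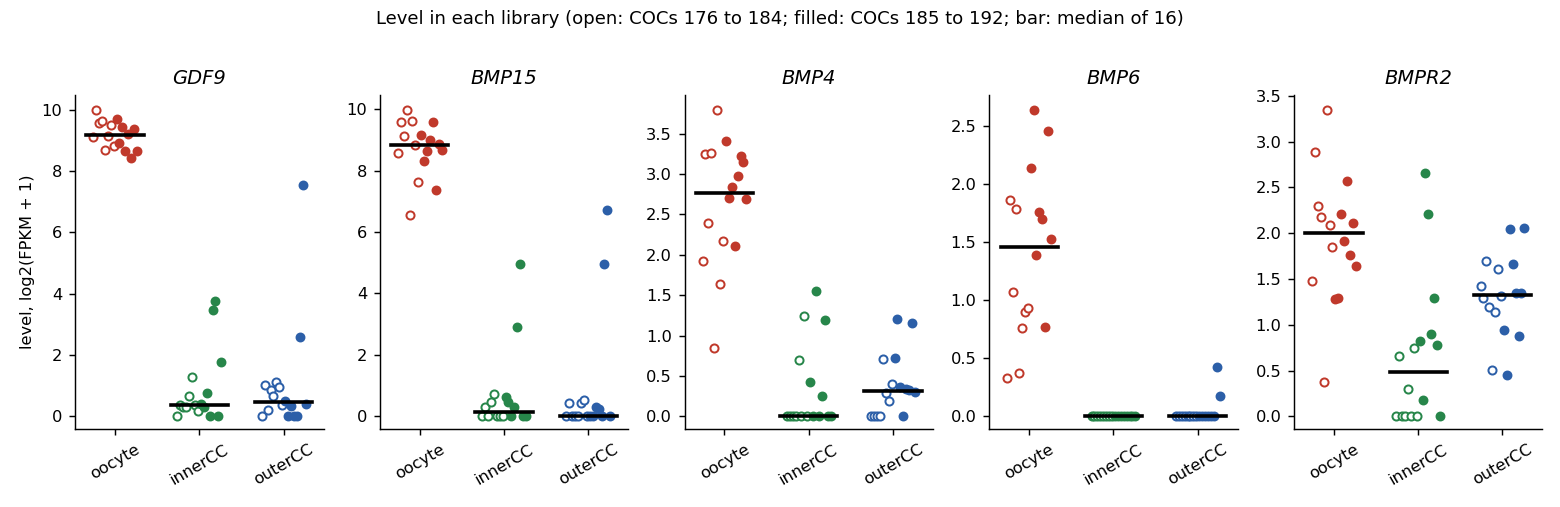
Level of each gene in every library, as log2(FPKM + 1), by sample type. Open points are COCs 176 to 184, filled points are COCs 185 to 192, and bars are medians of 16 libraries. The 4 ligands have higher medians in oocytes than in cumulus cells. GDF9 and BMP15 are low in most cumulus libraries, with their highest cumulus points in COCs 189 to 191. The highest cumulus points of BMP4 lie in COCs 187, 183 and 186, and BMPR2 overlaps between sample types.

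The same spacing also gave the number of sequenced fragments behind each level, and the precision follows from it. In oocytes GDF9 rested on 1127 to 35613 fragments per library and BMP15 on 321 to 15259. BMP4 rested on 6 to 405, BMPR2 on 4 to 301 and BMP6 on 2 to 207, and 9 of 16 oocytes held 1 to 10 fragments of BMP6. In cumulus cells most values were a few fragments: GDF9 came from 1 to 10 fragments in 9 outerCC and 10 innerCC libraries, and 1931 of its 1996 outerCC fragments lay in COC 191. BMP6 had 4 fragments over all outerCCs and 0 over all innerCCs. With no fragment, 3 fragments (the limit that a count of 0 allows) corresponded to 0.0924 to 2.14 FPKM of BMP6 in an innerCC library, so that a level near that of the oocytes was not detectable in the shallowest of them. Of 71 member values with 1 to 10 fragments, 67 came out within 0.1 of a whole number. The unit of each gene was set from its own lowest values, so that values of 1 fragment come out near 1 by construction. Fragments are not independent molecules after amplification, and these limits cover counting error only.

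Pooled over a sample type, fragments per unit of depth were 36.9 times as many in oocytes as in outerCCs for GDF9, 47.1 times for BMP15, 18.2 times for BMP4 and 64.6 times for BMP6. COC 191 held most of the outerCC fragments of GDF9, BMP15 and BMP6, and without it the ratios were 1011, 386, 21.4 and 160, the last from 1 outerCC fragment (95% counting interval 28.4 to 6360). Against innerCCs the ratio was 438 for GDF9, 454 for BMP15 and 26.3 for BMP4. For BMP6 it was at least 82.0-fold higher, with 3 fragments set for the innerCCs as a group, and at least 52.9-fold higher without COC 191. All innerCC ratios rest on a summed depth of 15.8, of which the innerCC of COC 181 held 5.35. That library had 1403 genes over 0.5 FPKM and a cumulus marker sum of 0. Without COCs 189, 190 and 191 the ratio against innerCCs was 826 for GDF9 and 4176 for BMP15, and against outerCCs 1342 and 4036. These COCs were left out for high cumulus levels of the same ligands, so that higher ratios follow from the choice. BMPR2 gave 1.91 against outerCCs and 4.88 against innerCCs. The innerCC ratios were not computed within COCs 185 to 192 alone. In that set the mean BMPR2 level was 2.75 FPKM in oocytes and 1.61 FPKM in innerCCs. In such bulk libraries a lower level in cumulus cells may be fewer cells of a type or less RNA per cell, which cannot be told apart.

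The first comparison, oocytes against outerCCs, asked how far each transcript belongs to the germ cell or to the outer somatic layer. All 4 ligands were higher in oocytes, in 16 of 16 COCs, and passed limma at a false discovery rate under 0.01 over all genes tested. Of the 12428 genes, 43.4% were called higher in oocytes and 34.3% lower, and 25.6% were higher in every COC. Since the ligands entered the tested genes through the oocytes alone, their direction follows from the filter and is a description. On the log2(FPKM + 1) scale, which understates the change of low genes, the difference was 8.14 ± 0.44 (SE) for GDF9 (adjusted p = 1.7e-18) and 7.87 ± 0.50 for BMP15 (adjusted p = 1.3e-16). It was 2.27 ± 0.21 for BMP4 (adjusted p = 4.6e-12) and 1.36 ± 0.18 for BMP6 (adjusted p = 2.3e-08). The median difference over all genes was 0.25.

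BMPR2 was higher in oocytes than in outerCCs by 0.65 ± 0.21 (SE) on the same scale, in 14 of 16 COCs (limma, adjusted p = 0.0049). With the COC number as a block the adjusted p was 0.0021, and with the number of genes as a covariate the difference was 0.78 (adjusted p = 0.00042). The call did not hold under every setting. The 75th percentile of each library, set equal between libraries, moved the median of all genes from 0.25 to -0.31, the calls to 4252 higher and 5647 lower, and the BMPR2 difference to 0.14 ± 0.17 (adjusted p = 0.44). Relative to the median gene the BMPR2 difference was 0.39 with FPKM as deposited and 0.45 with this scaling. Without COC 177, 179, 181 or 189 it was 0.54 to 0.63 and the adjusted p 0.0104 to 0.014. In COCs 185 to 192 it was 0.50 ± 0.26 (adjusted p = 0.089), where 38.3% of all genes were called higher in oocytes and 27.8% lower.

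**Figure D2:**
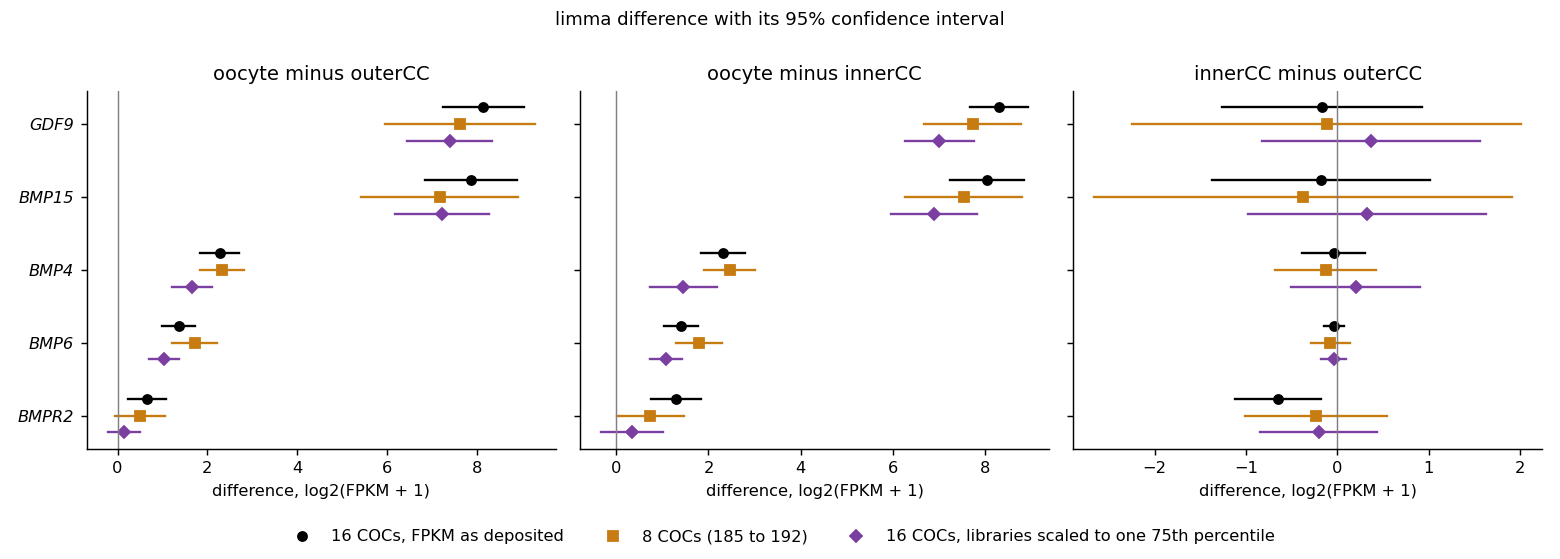
Difference in log2(FPKM + 1) from limma with its 95% confidence interval, for each gene and pair of sample types. Black points use the 16 COCs, orange squares COCs 185 to 192 and purple diamonds the 16 COCs scaled to the same 75th percentile. The 4 ligands in oocytes stay above 0 against both cumulus layers in each setting. The BMPR2 intervals reach 0 in the scaled fit, and against outerCCs also in COCs 185 to 192.

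Oocytes were then compared with innerCCs, the layers whose projections reach the oocyte. Here 63.2% of all genes were called higher in oocytes and 4.53% lower, and the median difference over all genes was 1.47, so that a call was common. In COCs 185 to 192, where innerCC libraries held more genes, the shares were 48.8% and 14.1%. GDF9 was higher in oocytes by 8.31 ± 0.31 (SE, limma adjusted p = 8.2e-22) and BMP15 by 8.05 ± 0.40 (adjusted p = 1.6e-18). BMP4 was higher by 2.31 ± 0.24 (adjusted p = 1.3e-10) and BMP6 by 1.4 ± 0.18 (adjusted p = 2.9e-08). Each ligand was higher in the oocyte in 16 of 16 COCs, beside 33.6% of all genes, a direction that the filter fixes here too. In COCs 185 to 192 the differences were 7.74, 7.54, 2.46 and 1.80 in the same order.

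For BMPR2 the oocyte exceeded the innerCCs by 1.29 ± 0.27 (SE, limma adjusted p = 5.5e-05), in 14 of 16 COCs. That difference was 0.17 below the median of all genes. It was 0.74 ± 0.35 (adjusted p = 0.062) in COCs 185 to 192, 0.35 ± 0.33 (adjusted p = 0.36) with the 75th percentiles set equal, and 1.0 (adjusted p = 0.035) with the libraries scaled to the same sum. The number of genes in the library moved with it, and with that number as a covariate the difference was 0.61 (adjusted p = 0.064).

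Between the cumulus layers, innerCCs against outerCCs, 0 of the 4 ligands passed the test. Limma called 0 genes higher in innerCCs and 77.4% lower, against 1.53% lower in COCs 185 to 192. At an unadjusted p under 0.05 it called 4 genes higher in innerCCs and 10346 lower. By that measure 0 of the 4 ligands passed in either direction, and 0 by the exact sign-flip permutation test over COCs. The ligands were near 0 in both layers, which left little room for a lower level. The differences were -0.17 for GDF9 (95% confidence interval -1.26 to 0.93), -0.18 for BMP15 (-1.37 to 1.02), -0.04 for BMP4 (-0.38 to 0.30) and -0.04 for BMP6 (-0.14 to 0.07). The intervals of GDF9 and BMP15 were wide through COCs 189, 190 and 191, and without these COCs they were -0.35 to 0.39 and -0.13 to 0.28.

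BMPR2 was lower in innerCCs than in outerCCs in 13 of 16 COCs, by a difference of -0.65 ± 0.23 (SE), and missed the threshold (limma, adjusted p = 0.0114). With the COC number as a block, which pairs the layers of a COC, it passed (adjusted p = 0.0061). The exact sign-flip permutation test over the 16 COCs gave an unadjusted two-sided p of 0.0062. Without COC 187, 188 or 190 the unpaired difference passed as well (-0.73 to -0.72, adjusted p 0.0013 to 0.0075). The median gene differed by -1.42, more than BMPR2 did. In COCs 185 to 192 the BMPR2 difference was -0.23 (95% confidence interval -1.02 to 0.55, adjusted p = 0.61), and in COCs 176 to 184 it was -1.06 (adjusted p = 2.7e-05), where 5 of 8 innerCC libraries listed it at 0. With the number of genes as a covariate it was 0.09 (adjusted p = 0.93).

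GDF9 and BMP15 in cumulus libraries were concentrated in 4 libraries of COCs 189, 190 and 191, which also held other oocyte transcripts. The outerCC of COC 189 and the innerCC of COC 191 listed both ligands at 0 and had 0 of 13 oocyte markers over 0.5 FPKM. The outerCC of COC 191 held GDF9 at 28.4% and BMP15 at 22.5% of the level in its own oocyte, with BMP4 at 15.5% and BMP6 at 7.61%. In that library all 13 oocyte markers were over 0.5 FPKM, and their sum was 18.9% of that in its oocyte. In COC 190, BMP15 stood at 18.4% of the oocyte level in both cumulus layers, whereas GDF9 stood at 1.45% in the outerCC and 3.61% in the innerCC. The marker sum there was 5.13% in the outerCC, with 7 of 13 markers over 0.5, and 16.7% in the innerCC, with 11 of 13. The innerCC of COC 189 held GDF9 at 1.70%, BMP15 at 0.839% and a marker sum of 29.9 FPKM, with 10 of 13 markers over 0.5.

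The ligands did not move as a group with the oocyte markers in every library. The innerCC of COC 187 held a marker sum of 45.1 FPKM, with 6 of 13 markers over 0.5, and GDF9 at 0.687 FPKM and BMP15 and BMP6 at 0. Its BMP4 level of 1.94 FPKM, from 8 fragments, was the highest among innerCCs and 31.6% of that in its own oocyte. The part of oocyte RNA in the cumulus levels was not tested. Without COCs 189, 190 and 191 the highest GDF9 level was 1.18 FPKM in outerCCs and 2.44 in innerCCs, and the highest BMP15 level was 0.447 and 0.670. The oocyte against outerCC difference was then 8.72 for GDF9 and 8.60 for BMP15, a rise that follows from leaving out COCs for their high cumulus levels.

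**Figure D3:**
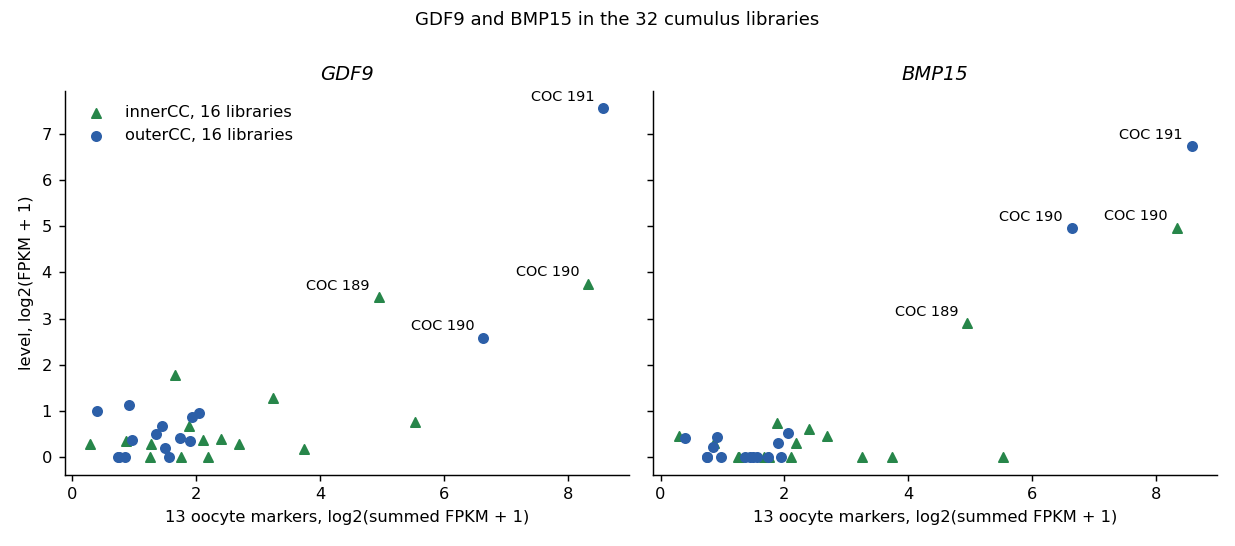
GDF9 and BMP15 in the 32 cumulus libraries against the summed FPKM of 13 oocyte markers in the same library, both as log2(value + 1). Triangles are innerCCs and circles outerCCs, and the libraries of COCs 189, 190 and 191 with over 3 FPKM are labelled. The labelled libraries have marker sums of 29.9 to 380 FPKM.

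FPKM is scaled per length, and the FPKM of different genes was ordered within an oocyte. The neighbouring pairs and their direction were taken from the medians of these same 16 oocytes. The p-values below therefore describe that order and are no independent test of it. A bias of a gene in amplification or mapping that all oocytes share was not measured. The tests below cannot detect it, so that they order FPKM and not transcript numbers. GDF9 exceeded BMP15 in 11 of 16 oocytes, by 0.46 ± 0.68 (SD, n = 16) in log2(FPKM + 1) (two-sided exact test by sign flips over the oocytes, p = 0.0128, adjusted over the 4 neighbouring pairs 0.0170). The ratio of GDF9 to BMP15 had a median of 1.42 and ran from 0.715 in COC 181 to 4.44 in COC 180. BMP15 exceeded BMP4 by 6.07 ± 0.74 in 16 of 16 oocytes (exact p = 3.05e-05, the smallest that 16 COCs allow). BMP4 exceeded BMPR2 by 0.69 ± 0.63 in 15 of 16 (exact p = 0.00031). BMPR2 exceeded BMP6 by 0.55 ± 0.94 in 13 of 16 (exact p = 0.0312), and this step did not hold in COCs 185 to 192, where it was 0.0488 (exact p = 0.891), or without COC 176, 177, 178, 181, 183, 184 or 190, where the highest adjusted exact p was 0.0624. The step from GDF9 to BMP15 was 0.35 in COCs 185 to 192 (exact p = 0.109) and 0.57 in COCs 176 to 184 (exact p = 0.0781).

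The spread between oocytes differed among the 5 genes. GDF9 had a coefficient of variation of 31.0%, lower than in all but 13.5% of the genes detected in oocytes, whose median was 52.0%. The coefficient was 50.7% for BMP15, 52.8% for BMP4, 64.4% for BMPR2 and 75% for BMP6, and the last 3 rested on medians of 45, 44.5 and 8.5 fragments per oocyte. BMP6 had an oocyte median of 0.888 FPKM in COCs 176 to 184 and of 2.32 FPKM in COCs 185 to 192.

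The oocyte of COC 180 was the lowest for BMP15, BMP4 and BMPR2, and second lowest for BMP6. This library also had the fewest genes over 0.5 FPKM among oocytes (8525) and the lowest summed FPKM (367112, against a highest oocyte sum of 657753), at a depth of 1.1 times the median library. GDF9 in the same oocyte was 415 FPKM, above that in COCs 188, 190 and 192. The part of library quality in these low levels was not tested.

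Across the 16 oocytes all 10 pairs of the 5 genes had a positive Pearson r in log2(FPKM + 1), from 0.0986 for BMP6 and BMPR2 to 0.732 for BMP15 and BMPR2. With Benjamini-Hochberg adjustment over the 10 pairs, 4 passed 0.05 by r (two-sided permutation test, 100000 resamples) and 3 by Spearman rho. Many other genes had a higher rho with a member. Of 10327 genes detected in oocytes, BMPR2 ranked 451st, GDF9 522nd and BMP4 752nd by rho with BMP15. BMP15 ranked 153rd for GDF9, 84th for BMPR2 and 405th for BMP4, while BMPR2 ranked 2081st for BMP4 and BMP4 1315th for BMPR2. GDF9 and BMP15 gave r = 0.686 (p = 0.0028, adjusted 0.0141) and rho = 0.671 (p = 0.0059, adjusted 0.0297). BMP15 and BMPR2 gave r = 0.732 (p = 0.0015, adjusted 0.0141) and rho = 0.688 (p = 0.0040, adjusted 0.0297). BMP15 and BMP4 gave r = 0.617 (p = 0.0113, adjusted 0.0283) and rho = 0.621 (p = 0.0123, adjusted 0.0409). BMP4 and BMPR2 gave r = 0.628 (p = 0.0095, adjusted 0.0283), while their rho was 0.424 (p = 0.105, adjusted 0.166).

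Leaving out the 2 oocytes farthest from the median of the first gene gave r = 0.588, 0.594, 0.595 and 0.471 for these pairs in the same order. Without the oocyte of COC 180 alone, r was 0.564 for BMP15 and BMPR2 (permutation test, adjusted p = 0.145), 0.359 for BMP15 and BMP4 (adjusted p = 0.351) and 0.398 for BMP4 and BMPR2 (adjusted p = 0.351), and none of the 3 passed. Without COC 181 the r of BMP15 and BMP4 and of BMP4 and BMPR2 missed 0.05 narrowly (0.577 and 0.535, adjusted p = 0.0569), as did that of BMP15 and BMP4 without COC 179 (0.592, adjusted p = 0.0504). The relation of GDF9 and BMP15 held without any single oocyte (r from 0.620 to 0.748). Scaling the libraries to the same sum gave r = 0.397 for it (adjusted p = 0.258).

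Within COCs 176 to 184, which include COC 180, r was 0.815 for GDF9 and BMP15, 0.848 for BMP15 and BMPR2, 0.852 for BMP15 and BMP4 and 0.901 for BMP4 and BMPR2 (exact permutation tests, adjusted p 0.0206 to 0.0288). Within COCs 185 to 192 the same pairs gave 0.610, 0.365, -0.114 and -0.093, and none passed (exact permutation tests, adjusted p 0.658 to 0.925).

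**Figure D4:**
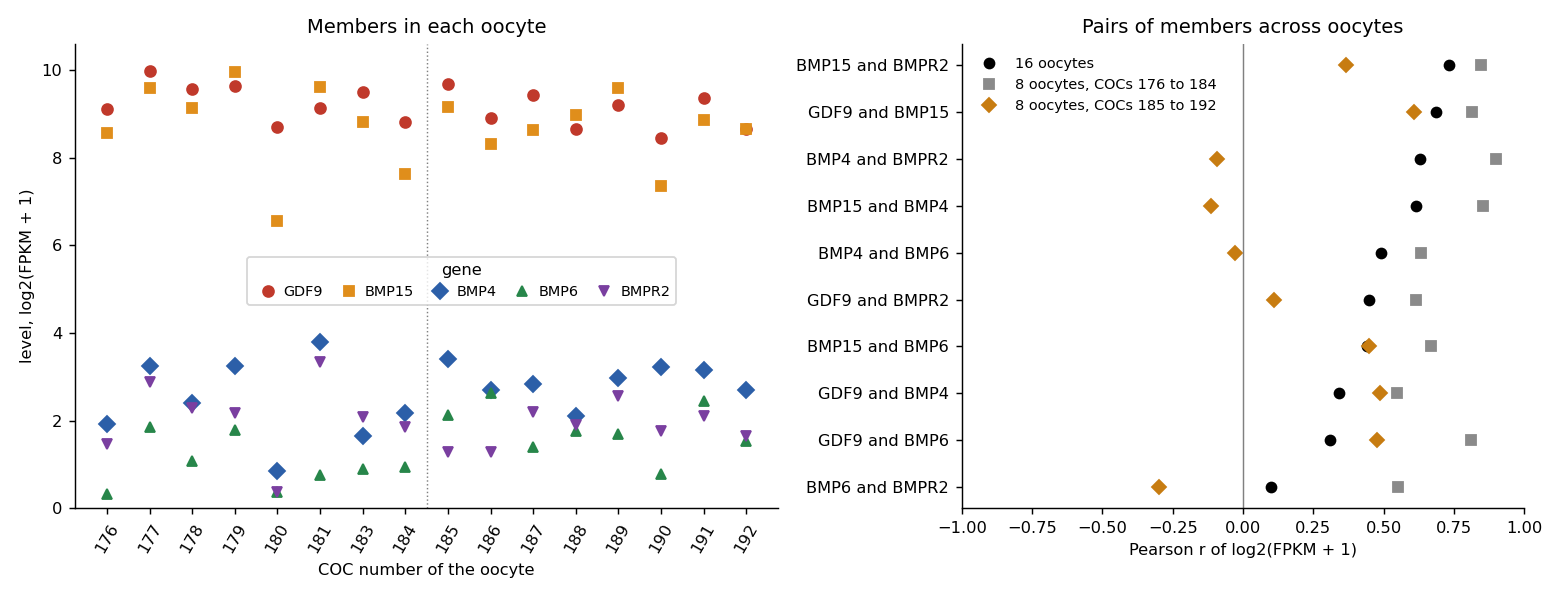
Left, level of the 5 genes in each oocyte as log2(FPKM + 1), with a dotted line between COCs 184 and 185. Right, Pearson r of each pair over 16 oocytes (black circles) and within COCs 176 to 184 (grey squares) and 185 to 192 (orange diamonds). COC 180 is low for 4 of the 5 genes, and the grey squares lie to the right of the orange diamonds in all 10 pairs.

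The study also asked whether transcripts of an oocyte vary with those of the cumulus cells around it. The oocyte level of each ligand was set against BMPR2 in the outerCC of the same COC, and 0 of 4 relations passed (two-sided permutation test, adjusted over the 4, and 0 at an unadjusted p under 0.05 by r or rho). The r was 0.173 for GDF9 (p = 0.520, rho 0.0471), 0.384 for BMP15 (p = 0.141, rho 0.132), 0.0238 for BMP4 (p = 0.930, rho -0.341) and -0.0624 for BMP6 (p = 0.817, rho -0.0912). Without the 2 COCs farthest from the median of the ligand the r was 0.102, -0.0637, -0.358 and 0.261.

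Receptors and SMADs place BMPR2 among its partners. Of 84 listed genes of the pathway 33 could be matched to an identifier, 28 beside the 5 genes, because symbols came only from the study's tables. Of these 28, 18 came from lists of genes detected only in oocytes or only in cumulus cells. That choice fixes their direction between oocytes and outerCCs. The other 10 came from a table of ligands and receptors. Of the 10, 6 were higher in oocytes than in outerCCs and 0 lower, beside 43.4% and 34.3% of all genes, with a median difference of 1.29 beside 0.25 for all genes. With equal 75th percentiles 5 were higher and 2 lower, with a median of 0.62 beside -0.31. Against innerCCs 9 of the 10 were higher in oocytes, 8 in COCs 185 to 192 and 6 with equal 75th percentiles, and 0 were lower. The share of all genes called higher there was 63.2%, and 48.8% in COCs 185 to 192.

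The 4 matched type I receptors were all higher in oocytes than in both cumulus layers, also in COCs 185 to 192 and with equal 75th percentiles. Of all genes, 43.4% were called higher against outerCCs and 63.2% against innerCCs, and 38.3% and 48.8% in COCs 185 to 192. ACVR1 had a median of 39.8 FPKM in oocytes and 1.11 in outerCCs (log2 difference 4.15, limma adjusted p = 1.5e-19). BMPR1B, through which BMP15 acts, had medians of 16.8 and 1.36 FPKM (2.82, adjusted p = 1.8e-13), and BMPR1A had 15.6 and 2.19 (2.55, adjusted p = 6.2e-15). TGFBR1, the type I receptor for GDF9, had 9.31 and 2.49 (1.68, adjusted p = 3.9e-09).

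The type II receptors were closer between the sample types. BMPR2 had the highest oocyte median of the 4 matched, 3.01 FPKM, followed by ACVR2A (2.21), ACVR2B (1.88) and TGFBR2 (0.998). In outerCCs ACVR2B (2.65 FPKM) and ACVR2A (1.74) had higher medians than BMPR2 (1.51). The oocyte against outerCC difference was 0.12 for ACVR2A (limma adjusted p = 0.43) and -0.48 for ACVR2B (adjusted p = 0.18). With equal 75th percentiles both passed as lower in oocytes, by differences of -0.37 and -0.97. TGFBR2, from a list of genes detected in oocytes alone, differed by 0.76 (adjusted p = 2.5e-05).

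Among the SMADs, SMAD1 (11.4 against 1.96 FPKM, log2 difference 2.25, adjusted p = 5.8e-15) and SMAD5 (13.1 against 7.35, 0.90, adjusted p = 4.8e-05) were higher in oocytes than in outerCCs by limma. With equal 75th percentiles SMAD1 stayed past the threshold (1.54) and SMAD5 did not (0.18, adjusted p = 0.26). SMAD2, which carries the GDF9 signal, had the highest level of the 5 matched SMADs on both sides, with medians of 127 FPKM in oocytes and 113 in outerCCs (0.41, adjusted p = 0.074). SMAD6 and SMAD9, both from the oocyte list, had oocyte medians of 0.539 and 0.438 FPKM.

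In innerCCs against outerCCs, 17 of the 28 pathway genes were lower by limma and 0 higher (21 and 0 at an unadjusted p under 0.05). Among all 12428 genes 77.4% were lower (10346 genes at an unadjusted p under 0.05). The median difference was -0.84 for the pathway and -1.42 for all genes. The pathway values mix sources. Of the 10 genes from the table of ligands and receptors, 9 were lower (median -0.93). Of the 18 genes from the detection lists, 8 were lower (median -0.35). Those detected only in oocytes were low in both cumulus layers, which left little room for a fall. CHRD, PCSK7 and FURIN passed detection in outerCCs but not in innerCCs, a choice that favours a lower innerCC level. The pathway total is therefore a description. In COCs 185 to 192, 0 of 28 passed in either direction (8 lower and 0 higher at an unadjusted p under 0.05, beside 6011 and 9 of the 12428 genes).

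**Figure D5:**
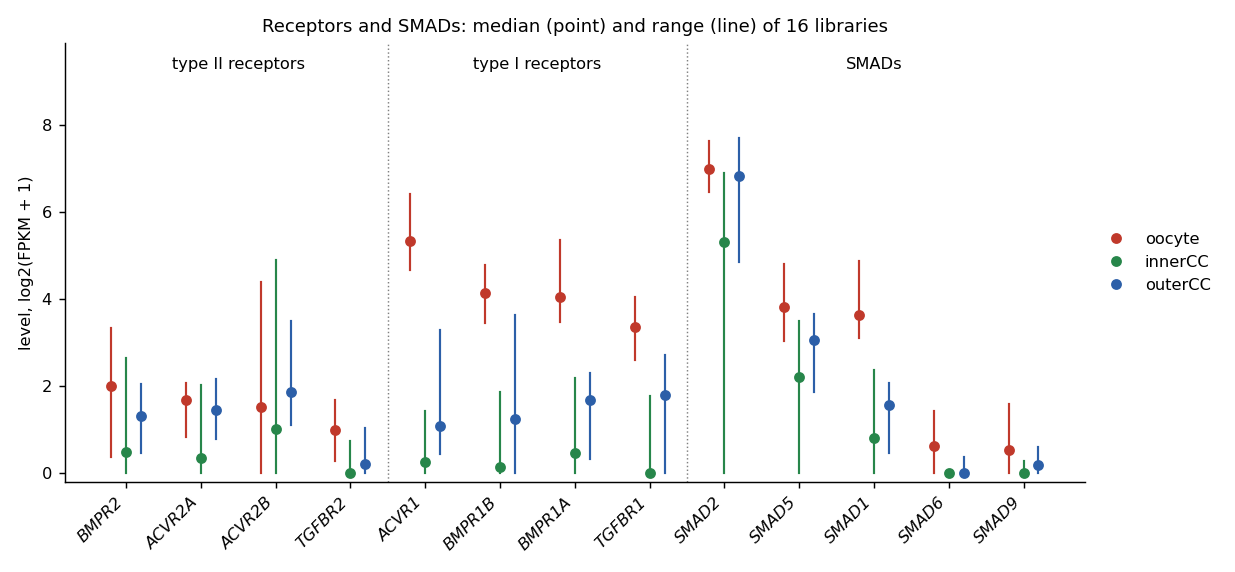
Median (point) and range (line) of log2(FPKM + 1) over 16 libraries of each sample type, for the matched type II receptors, type I receptors and SMADs. The type I receptors have their highest medians in oocytes, although the oocyte ranges of BMPR1B and TGFBR1 overlap those of the outerCCs. BMPR2, ACVR2A and ACVR2B overlap between all sample types.

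The genes whose levels were most like those of the 5 were taken by Spearman rho, as a description. Over the 16 oocytes, whose depth ranged from 0.436 to 7.65 times the median library, NRIP3 (rho 0.835) and SLC24A1 (0.818) were among the 3 nearest to GDF9, and BMP15 ranked 153rd for it. MTERF4 (0.947) and RGS2 (0.871) were among the 3 nearest to BMP4, and BCAP31 (0.938) and AURKB (0.929) among those nearest to BMP6. Over all 48 libraries, where the sample types set the ranks, the nearest to BMP15 were PLEKHG7 (0.906), DUSP13 (0.902) and TRIM64 (0.898). NLRP14 (0.925), ARHGEF26 (0.877) and CPN1 (0.867) were nearest to BMP4, and SMCO4 (0.976), TMEM150C (0.973) and PNOC (0.973) to BMP6. Of the 30 nearest genes the other 15 had no symbol, among them the nearest to GDF9 over 48 libraries, ENSBTAG00000034346 (0.911), and to BMPR2 over oocytes, ENSBTAG00000048306 (0.926).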

How the data were processed

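Libraries were made from polyA+ RNA with SMART-seq2 and sequenced as paired ends. The authors aligned reads to UMD3.1 with STAR 2.5.2, discarded reads with several matches and duplicates (picard 2.5), and derived FPKM with Cufflinks 2.2.1 on the Ensembl annotation. The deposited tables hold these FPKM, an unfiltered and a filtered one, without counts, and the unfiltered one was used. The authors' own tests used counts and a batch not given per COC, so neither was fitted. The 12428 genes over 0.5 FPKM in at least 8 libraries of 1 sample type were compared on log2(FPKM + 1) with limma 3.58.1 (R 4.3.3, eBayes without trend) over the 32 libraries of a comparison, with Benjamini-Hochberg adjustment at 0.01. Other values used Python 3.11.15, numpy 2.4.6, pandas 2.3.3 and scipy 1.17.1. The limma fit and the depth estimate were tested on simulated data, and the permutation tests were not. The limma simulation moved only genes of a higher level than the ligands have in cumulus cells.

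Libraries with the same number come from the same COC. Their deviations from the sample type mean correlated by 0.0102 (oocyte and outerCC), 0.0480 (oocyte and innerCC) and 0.154 (innerCC and outerCC) on average over COCs, and the COC number was fitted as a block as an alternative.

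Relative depth came from the spacing of low FPKM values. A spacing was read in 1124 of 1128 library pairs, and a single depth for each library matched 92.5% of those within 0.1 (log2). This reading, the split of COCs at 185 and the values without COC 191 or without COCs 189, 190 and 191 were chosen after the data were seen. COCs 189, 190 and 191 were picked for the GDF9 and BMP15 levels of their cumulus libraries.

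The 5 genes and all gene lists were chosen with earlier results of these data known. The rule for named genes was: the 5 genes, up to 4 genes of each pathway role past the threshold, with counts for the role, and the 3 genes of highest rho with each of the 5. Symbols were matched through the study's tables (4165 genes). Genome positions and sequences were not used here. In a RefSeq table of a later assembly (ARS-UCD2.0), 0 genes overlapped any of the 5. Other alternatives changed the filter, pseudocount, scaling, variance model, covariates and COCs.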

Additional observations from a re-analysis of the deposited data

How the results depend on the processing

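The filter fixes the direction of the 8 ligand differences between oocytes and cumulus cells, so that their calls, present in all 102 alternative fits, are no measure of stability. The 4 between cumulus layers had no call in 51. Both counts set aside fits that left out 1 COC. BMP6 could not be tested under the stricter filter (FPKM over 1 in 12 samples). Leaving out each COC in turn gave 8.06 to 8.56 for GDF9, 7.73 to 8.25 for BMP15, 2.19 to 2.41 for BMP4 and 1.28 to 1.43 for BMP6 against outerCCs. BMPR2 ranged over 0.54 to 0.72 against outerCCs, 1.16 to 1.41 against innerCCs, and -0.73 to -0.55 between innerCCs and outerCCs. BMPR2 against outerCCs missed the threshold at 0.91 and 0.95 with pseudocounts of 0.1 and 0.01, at 0.14 with equal 75th percentiles, at 0.53 with equal sums, at 0.50 in COCs 185 to 192, at 0.79 in COCs 176 to 184 and at 0.58 without COCs 189, 190 and 191. Against innerCCs it missed it at 0.35 and 1.0 with these 2 scalings, 0.61 with the number of genes as covariate and 0.74 in COCs 185 to 192. Between cumulus layers BMPR2 passed at -1.83 and -3.11 with the pseudocounts, -0.65 with the COC number as replicate block and -1.06 in COCs 176 to 184. The exact sign-flip test of the same -0.65 gave p = 0.0062, which is not adjusted over genes. The block changed no other call among the 5 genes. The causes were not tested.

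Of all genes, 563 were lower in oocytes than in innerCCs, against 1046 with equal 75th percentiles, 2831 with the covariate, 1747 and 21 in COCs 185 to 192 and 176 to 184, and 176 without COCs 189, 190 and 191 (366 to 640 without each COC). Genes higher in innerCCs than in outerCCs numbered 0, against 4 with the block and 15 with either scaling (0 to 3 without each COC). Those lower numbered 9620, against 4 with the covariate and 190 in COCs 185 to 192.

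In oocytes GDF9 less BMP15 was 0.35 and 0.57 in COCs 185 to 192 and 176 to 184, where neither passed, and BMP4 less BMPR2 was 0.35 in COCs 176 to 184. BMPR2 less BMP6 was 0.0488 in COCs 185 to 192 and 0.42 to 0.68 without each COC. The r of GDF9 and BMP15 was 0.397 with equal sums and 0.610 in COCs 185 to 192. BMP15 and BMP4 gave 0.518 with equal sums, -0.114 in COCs 185 to 192 and 0.359 to 0.776 without each oocyte, and BMP15 and BMPR2 gave 0.365 and 0.564 to 0.801. BMP4 and BMPR2 gave 0.616 with equal sums, -0.093 in COCs 185 to 192 and 0.398 to 0.749 without each oocyte. GDF9 and BMP6 passed at 0.812 in COCs 176 to 184 and at 0.638 with set means subtracted, BMP15 and BMP6 at 0.560 with set means subtracted, and BMP4 and BMP6 at 0.555 with a pseudocount of 0.1. Without each oocyte GDF9 and BMPR2 ranged over 0.335 to 0.571 and BMP4 and BMP6 over 0.342 to 0.662. BMP6 in oocytes and the ligands in most cumulus libraries rested on few fragments, and the part of depth in this was not tested.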

Other observations

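Antagonists of BMP signalling outside the cell lay on both sides of the COC. Of 12 listed, 5 were matched, 4 of them from lists of genes detected only in oocytes or only in cumulus cells. The direction of those 4 between oocytes and outerCCs follows from the choice. SOSTDC1, an extracellular BMP antagonist, had a median of 124 FPKM in oocytes and 0.136 in outerCCs (log2 difference 6.48, limma adjusted p = 4.7e-21). CHRD (chordin) was at a median of 0 in oocytes and 4.55 FPKM in outerCCs (-2.26, adjusted p = 1.3e-12), and CHRDL1, a chordin-like antagonist, at 0.158 and 6.18 (-2.36, adjusted p = 7.2e-10). The same directions with equal 75th percentiles follow from that choice too. BAMBI, a pseudoreceptor from the ligand and receptor table, had medians of 2.12 and 1.21 FPKM (-0.05, adjusted p = 0.92), and 1 outerCC library held 139 FPKM.

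Of 5 listed proprotein convertases and related proteases, 4 were matched, all from the detection lists. That choice fixes their direction between oocytes and outerCCs, so that the calls are a description. Of all genes, 43.4% were called higher in oocytes than in outerCCs and 34.3% lower. PCSK5 was higher in oocytes than in outerCCs (0.977 against 0.354 FPKM, 0.61, adjusted p = 0.00045), a call lost with equal 75th percentiles. BMP1 (0 against 4.55 FPKM, -2.39, adjusted p = 7.3e-16), PCSK7 (0.395 against 3.45, -1.66, adjusted p = 5.8e-10) and FURIN (0.0994 against 0.562, -0.56, adjusted p = 0.0017), which cleaves propeptides of this family, were lower by limma. Of 8 listed cumulus genes known to respond to GDF9 or BMP15, 2 were matched, also from those lists, which fix their direction as well. HAS2, a hyaluronan synthase of the expanding cumulus, had a median of 16.5 FPKM in these oocytes and 0.172 in outerCCs (3.40, adjusted p = 1.6e-14), and PFKP, a glycolytic enzyme, had 0.0276 and 31.9 (-4.91, adjusted p = 4.4e-18). The HAS2 identifier was taken from the study's table and was not matched in any other way.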
